A study of Mus musculus with 24 samples.

Results

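The genes described here are the signalling proteins that stand directly behind the IL-1 and Toll-like receptors, namely the adaptors Myd88 and Tollip, the kinases Irak4, Irak1 and Irak2, the kinase-inactive relative Irak3, the ubiquitin ligase Traf6, and Tab2 and Map3k7 of the TAK1 complex. They were found by gene symbol in the table of read counts and make up 9 of its 17696 genes, and Irak1 and Traf6 among them are established targets of miR-146a. RNA-seq was performed on 24 libraries of MIN6, a mouse pancreatic β cell line derived from an insulinoma, in 6 groups of 4. Every group carried a lentiviral construct. Scr cells held a scrambled control sequence and ZIP cells an antisense sequence against miR-146a-5p, both in a miRZip vector marked with copGFP, whereas OE cells overexpressed miR-146a-5p from a shMIMIC vector marked with TurboRFP. Scr+Cy, ZIP+Cy and OE+Cy were the same lines exposed to IFNγ at 100 ng/ml, TNFα at 10 ng/ml and IL-1β at 5 ng/ml for 24 h. The lines were selected with puromycin and grown from single clones, so that line, clone and, for OE, vector backbone changed together and cannot be told apart. Mature miRNAs, miR-146a-5p included, lie outside what these libraries measure. The titles carry a code that runs with the replicate number, but the labels do not say what it stands for or that the 4 libraries of a group came from separate cultures. The p-values then measure the spread between libraries, which may be technical.

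Libraries held 26657792 to 37168232 reads (median 30701023), and the library nearest to each of the 24 in expression was of its own group. β cell markers were abundant in every library, with 22838 to 50443 CPM summed over 10 genes. The 5 listed of 7 macrophage markers summed to at most 4.62 CPM, with only Cd68 above 1 CPM on average, and the 3 listed of 5 endothelial markers summed to at most 4.66 CPM. The 6 fibroblast markers summed to 58.7 CPM in Scr+Cy 1, 54.0 CPM in ZIP 1 and 18.9 CPM in Scr 1, and to at most 7.95 CPM in the other 21 libraries. Values without these 3 libraries are given beside each call on the 9 members that they change. In bulk RNA, fewer cells that express a gene and less RNA per cell cannot be told apart.

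Binding of IL-1β to its receptor, or of microbial ligands to most Toll-like receptors, recruits MYD88, which assembles IRAK4 with IRAK1 or IRAK2. IRAK1 and IRAK2 activate TRAF6, TRAF6 builds ubiquitin chains that TAB2 binds, and the kinase TAK1 (product of Map3k7) held by TAB2 then activates IKK and the MAP kinases, which leads to NF-κB. IRAK3 and TOLLIP restrain the pathway, and miR-146a, whose gene NF-κB induces, is known to lower IRAK1 and TRAF6 in turn.

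A miRNA recognises its targets mainly through its seed, bases 2 to 8 from the 5′ end, shown in capitals in the sequences of miR-146a-5p and of its relative miR-146b-5p, which has the same seed (RefSeq, GRCm38.p6, the build also called mm10). miR-146a-5p lies on chr11:43374435-43374456, minus strand, and miR-146b-5p on chr19:46342790-46342811, plus strand.
mmu-miR-146a-5p: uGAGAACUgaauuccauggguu
mmu-miR-146b-5p: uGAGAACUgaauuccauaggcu

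The 3′ UTRs of the 9 genes (GENCODE M21, mm10) were searched for the complement of this seed, as a description of which members carry it. An 8mer pairs with positions 2 to 8 and has an A opposite position 1, a 7mer-m8 pairs with positions 2 to 8 only, and a 7mer-A1 pairs with positions 2 to 7 beside that A. In all, 12 sites of at least 7 bases lay in 4 of the genes, 7 of them 8mers, 2 of them 7mer-m8 and 3 of them 7mer-A1. Traf6, on the plus strand of chr2 (gene at chr2:101678420-101701668), had 4 sites, each of them an 8mer. Irak1, on the minus strand of chrX (chrX:74013914-74023921), had a pair of 8mers and a 7mer-A1. Each sequence below ends with its site, in capitals, and begins in the UTR before it. The first 4 are the Traf6 sites at chr2:101697959-101697966, chr2:101698023-101698030, chr2:101698835-101698842 and chr2:101701359-101701366. The 3 of Irak1 lie at chrX:74015393-74015400, chrX:74015377-74015384 and chrX:74015287-74015293, the first of these 40 bases and the next 56 bases after the stop codon.
Traf6 site 1: agaagttaccgctctggtgttgAGTTCTCA
Traf6 site 2: accatgatccctggaaggcttaAGTTCTCA
Traf6 site 3: catatacagtactttggagtctAGTTCTCA
Traf6 site 4: tctcccgggactttgctactgcAGTTCTCA
Irak1 site 1: atccctcagactcagaggtcaaAGTTCTCA
Irak1 site 2: ggtcaaagttctcatgcttggaAGTTCTCA
Irak1 site 3: gagagagggcagtggaccctgctGTTCTCA

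Irak2, at chr6:113638467-113695027 on the plus strand, held a site of each kind at chr6:113694133-113694139 (7mer-m8), chr6:113694266-113694273 (8mer) and chr6:113694649-113694655 (7mer-A1). Tollip, at chr7:141881580-141902461 on the minus strand, held a 7mer-m8 at chr7:141884138-141884144 and a 7mer-A1 at chr7:141881728-141881734. They are shown because the levels of both genes also differed between lines.
Irak2 site 1: atgctgttgcccccaaacctcttAGTTCTC
Irak2 site 2: acctacagccggtgtctccgcaAGTTCTCA
Irak2 site 3: ctttgaaaatgtatctgttctgtGTTCTCA
Tollip site 1: gctgggggacagagttaggggacAGTTCTC
Tollip site 2: ctgtctggaggttggtgggaatgGTTCTCA

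Myd88 had a match of 6 bases only, and Irak4, Irak3, Tab2 and Map3k7 had none in their annotated 3′ UTRs. Of 15452 genes with a 3′ UTR, 4.76% held an 8mer and 13.1% a match to positions 2 to 8. A match of letters is no proof of a working site.

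Per kilobase of exon, 4 members stood well above the others in Scr cells. Tollip was at 44.1 ± 0.639 CPM per kb (SD, n = 4, as for all errors of levels), Irak1 at 41.7 ± 2.61, Tab2 at 33.3 ± 1.01 and Map3k7 at 29.6 ± 1.36. Tollip and Irak1 did not differ beyond their spread. Traf6 followed at 12.1 ± 0.479, Myd88 at 2.24 ± 0.131, Irak2 at 0.896 ± 0.121 and Irak4 at 0.175 ± 0.0412 CPM per kb. Irak3 had no read in any Scr library, where 3 reads in the shallowest would be 0.0951 CPM. In OE cells Irak1 came first, at 60.2 ± 1.28 CPM per kb, ahead of Tab2 and Tollip.

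**Figure D1:**
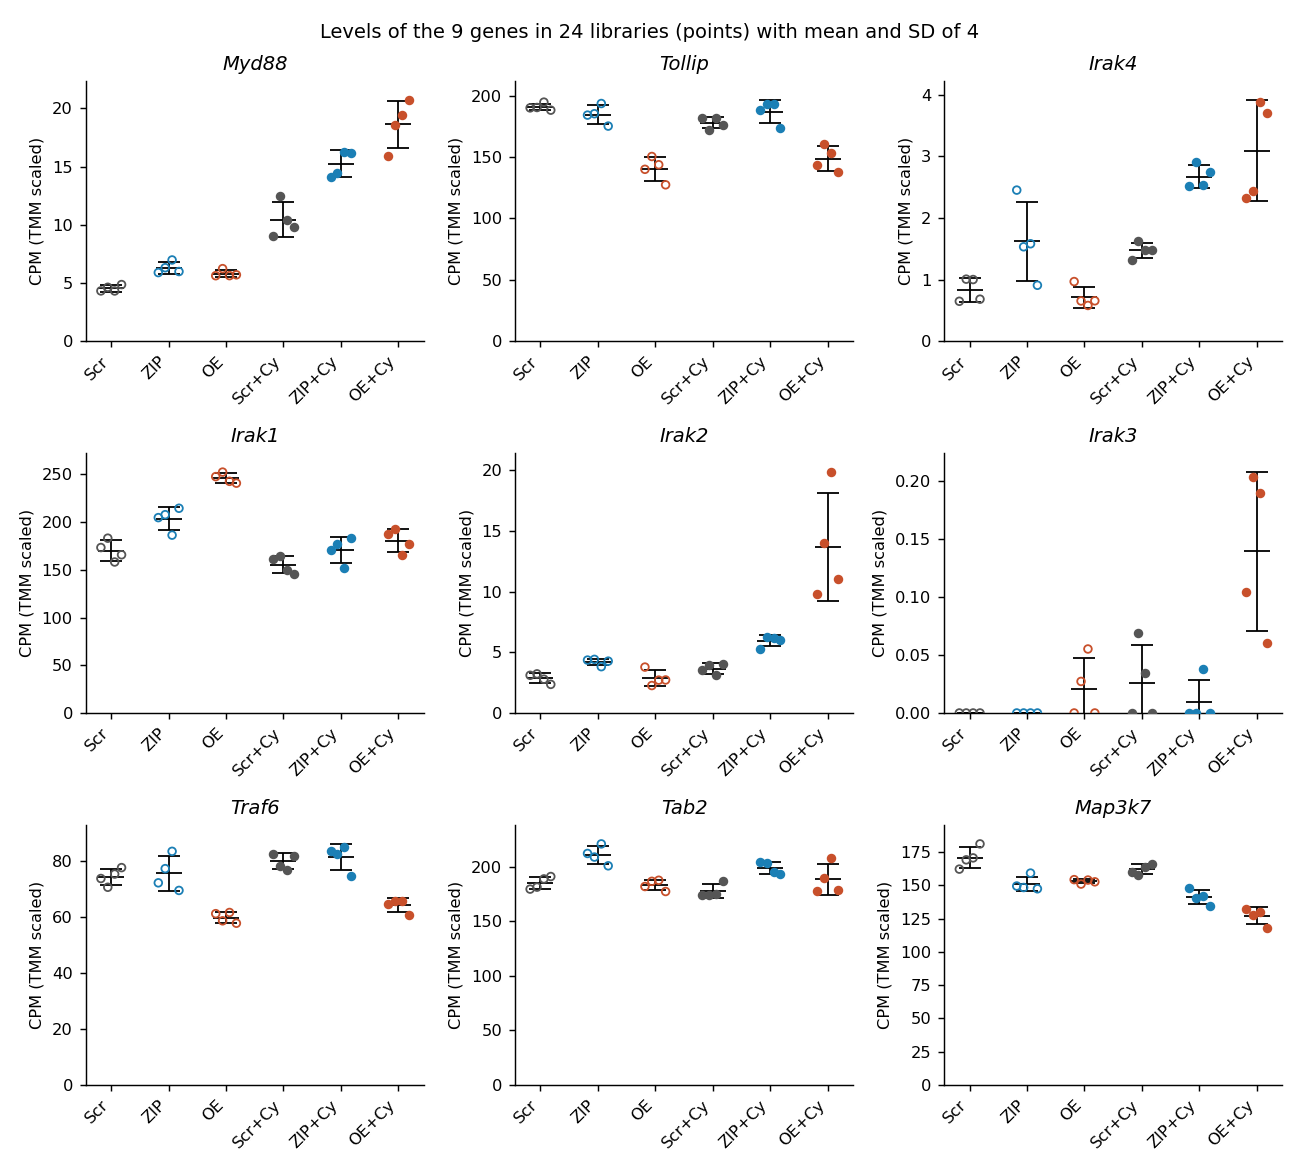
Levels of the 9 genes (CPM after TMM scaling, linear axes from 0) in each library, with 1 panel per gene. Open points are untreated and filled points cytokine-treated libraries, and the bars give mean and SD of 4. Traf6 and Tollip were lowest in OE and OE+Cy, Irak1 was highest in OE, and Myd88, Irak4 and Irak2 were highest in OE+Cy.

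The first question was how the established targets Irak1 and Traf6 differed when miR-146a-5p was overexpressed. Irak1, the kinase that couples MYD88 to TRAF6, was higher rather than lower in OE cells. Its level in the 4 Scr libraries was 173, 183, 158 and 166 CPM (the read count relative to the depth of the library, scaled by TMM), and in the 4 OE libraries 248, 252, 243 and 241 CPM. Every OE library lay above every Scr library. The means were 170.2 ± 10.7 and 246 ± 5.21 CPM, a rise of 1.45-fold (log2 FC 0.53, SE 0.063, adjusted p = 1.5e-07). Here and in the following, log2 FC is the log2 fold change, SE its standard error, and the adjusted p comes from edgeR's quasi-likelihood test with Benjamini-Hochberg adjustment over all genes.

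Traf6, the ubiquitin ligase, moved in the other direction. Its levels were 73.9, 70.8, 75.5 and 77.8 CPM in Scr and 61.3, 58.7, 61.7 and 57.9 CPM in OE, with no overlap. The mean fell from 74.5 ± 2.96 to 59.9 ± 1.89 CPM, which was 0.804 of the Scr level (log2 FC −0.31, SE 0.0544, adjusted p = 3.35e-05). Both genes carry 8mers, and they differed from Scr in opposite directions.

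Irak2, the second kinase that can engage TRAF6, carries an 8mer as well and did not pass the test in untreated OE cells. It stood at 3.102, 3.22, 2.78 and 2.35 CPM in Scr and 3.78, 2.26, 2.704 and 2.72 CPM in OE, ranges that overlapped. The 95% interval of its log2 fold change was −0.39 to 0.38.

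Tollip, the adaptor that restrains IRAK1, fell in OE cells by more than Traf6 did. Scr libraries held 190.1, 190.4, 195 and 188 CPM and OE libraries 140.1, 151, 144 and 127 CPM, again without overlap (log2 FC −0.44, SE 0.0536, adjusted p = 2.1e-07). Map3k7 also fell, to a smaller extent, from 171 ± 7.83 to 153 ± 1.52 CPM (log2 FC −0.16, adjusted p = 0.00456), although its 3′ UTR holds no match. Myd88 rose from 4.53 ± 0.266 to 5.79 ± 0.292 CPM (log2 FC 0.36, adjusted p = 0.00519). Tab2 (log2 FC −0.014, interval −0.11 to 0.086) and Irak4 (−0.22, interval −0.77 to 0.32) did not pass.

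In OE against Scr, 5 of the 9 members therefore passed an adjusted p of 0.05, 2 higher and 3 lower, where 50.1% of all genes did (24.5% higher and 25.6% lower). The groups did not overlap for 5 of the members and for 46.5% of all genes. None of the members reached the study's own threshold, a change of at least 1.5-fold with an unadjusted p under 0.05, which 25.7% of all genes reached. The same count of 0 was found with DESeq2, and it was 1 (Irak3, on 3 reads) without OE 1 or without OE 4. Over 1 CPM, the median log2 fold change was −0.027 for the 608 genes with an 8mer, of which 53.8% were lower in OE. It was 0.0072 for the 7533 genes with no site, of which 49.2% were lower. In OE+Cy against Scr+Cy the medians were −0.056 (56.7% lower) with an 8mer and −0.0041 (50.4% lower) with no site. In ZIP against Scr they were −0.0078 (51.3% lower) and −0.019 (53.4% lower). These differences were not tested.

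The ZIP line, which carries the antisense sequence, was compared with the same Scr libraries. Traf6 was at 72.3, 77.4, 83.6 and 69.6 CPM in ZIP, overlapping Scr on both sides (log2 FC 0.025, interval −0.087 to 0.14). Irak1 was at 205, 208, 186 and 215 CPM, above all Scr libraries (log2 FC 0.26, SE 0.0629, adjusted p = 0.00295). Irak1 was thus above Scr in both manipulated lines, and OE was above ZIP (log2 FC 0.27, adjusted p = 0.000716).

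Myd88 and Tab2 rose in ZIP. For Myd88 the ZIP libraries held 5.89, 6.31, 6.97 and 5.98 CPM against 4.32, 4.63, 4.31 and 4.86 CPM in Scr (log2 FC 0.47, SE 0.102, adjusted p = 0.0009). Tab2 was at 211 ± 8.31 CPM against 185 ± 5.62 CPM (log2 FC 0.19, adjusted p = 0.00493). Neither gene's ZIP libraries overlapped Scr. Map3k7 fell by 0.18 on the log2 scale (adjusted p = 0.00395), about as in OE, and Tollip did not pass (log2 FC −0.048, interval −0.16 to 0.062).

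Irak4, the kinase at the head of the cascade, rose in ZIP on few reads. Scr libraries had 24, 35, 32 and 22 reads and ZIP libraries 67, 42, 51 and 27 reads, or 2.45, 1.53, 1.58 and 0.907 CPM, and the groups overlapped (log2 FC 0.95, SE 0.252, adjusted p = 0.00558). The highest library, ZIP 1, is also 1 of the 3 with fibroblast markers. Without those 3 the log2 fold change was 0.58 (adjusted p = 0.123) and the call was lost. It held with any 1 library left out, ZIP 1 included (adjusted p up to 0.0431).

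Irak2 rose in ZIP from 2.86 ± 0.388 to 4.21 ± 0.273 CPM without overlap, the individual ZIP values being 4.35, 4.41, 3.81 and 4.27 CPM (log2 FC 0.55, SE 0.183, adjusted p = 0.0255). The adjusted p was 0.0864 without Scr 4, 0.0554 without ZIP 1, 0.059 without ZIP 2 and 0.0724 without the 3 libraries with fibroblast markers, while the log2 fold change stayed between 0.47 and 0.61.

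In ZIP against Scr, 6 of the 9 members passed, 5 higher and 1 lower, beside 28.3% of all genes (13.5% higher and 14.8% lower). Of the 5 higher, Irak4 and Irak2 were lost without the 3 libraries with fibroblast markers. The groups did not overlap for 5 members, beside 27.2% of all genes. By the study's threshold 1 member passed, Irak4, beside 14.9%. The median log2 fold change of the 8 members other than Irak3 was 0.22 in ZIP and −0.087 in OE, with medians over all genes of 0 in both.

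OE and ZIP were also compared directly. Traf6 (log2 FC −0.34, adjusted p = 1.21e-05) and Tollip (log2 FC −0.39, adjusted p = 1.11e-06) were lower in OE than in ZIP without overlap. Tab2 (log2 FC −0.20, adjusted p = 0.00122), Irak4 (log2 FC −1.18, adjusted p = 0.000427) and Irak2 (log2 FC −0.56, adjusted p = 0.0133) were lower as well. Without OE 2, the OE library with the least Irak2, the Irak2 call was lost (log2 FC −0.45, adjusted p = 0.0581). With Irak1, which was higher in OE, 6 of 9 passed, beside 52.4% of all genes, and by the study's threshold 1 did, beside 27.3%. Myd88 did not pass (log2 FC −0.12, interval −0.33 to 0.089).

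**Figure D2:**
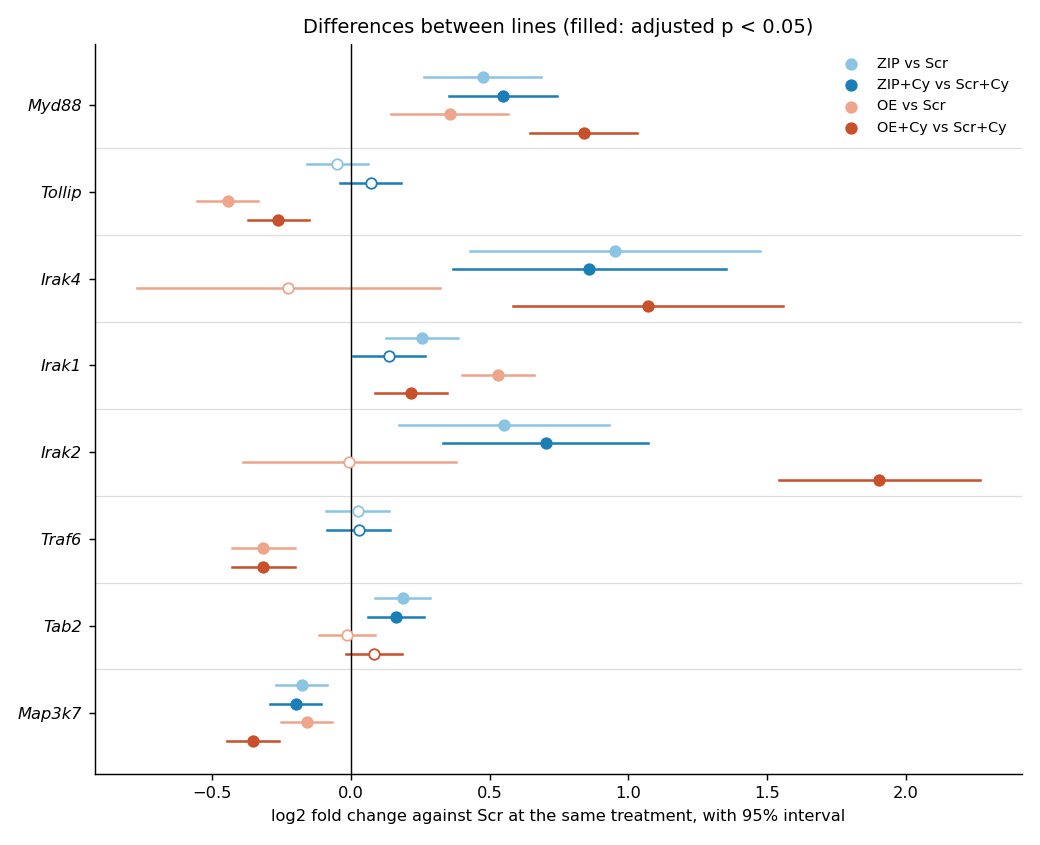
Log2 fold changes (points) with 95% intervals (lines) of ZIP and OE against Scr, untreated and with cytokines, for 8 genes, Irak3 having too few reads. Filled points passed an adjusted p of 0.05. Traf6 and Tollip lay below 0 in OE at both treatments, and Irak2 in OE stood at −0.0047 untreated and 1.90 with cytokines.

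The second question was how the pathway answered the cytokines. Of the members that passed in Scr cells, Myd88 moved most. It stood at 9.02, 12.5, 10.4 and 9.82 CPM in Scr+Cy, above every Scr library by a wide margin (log2 FC 1.20, SE 0.0994, adjusted p = 1.23e-09). Irak4 rose from 0.834 ± 0.196 to 1.47 ± 0.12 CPM, with values of 1.32, 1.62, 1.48 and 1.47 CPM that did not overlap Scr (log2 FC 0.82, SE 0.252, adjusted p = 0.0248). The Irak4 call was lost without Scr 1 (adjusted p = 0.0828), Scr 4 (0.0746), Scr+Cy 2 (0.0639) or the 3 libraries with fibroblast markers (0.0538).

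The targets Irak1 and Traf6 did not pass in Scr cells. Irak1 was at 162, 165, 149 and 146 CPM in Scr+Cy, overlapping Scr (log2 FC −0.13, adjusted p = 0.17). With the replicate number as a block, which paired these groups, the adjusted p was 0.0449. Traf6 was at 82.7, 78.4, 76.9 and 82.1 CPM (log2 FC 0.10, adjusted p = 0.209). Irak2 (log2 FC 0.35, adjusted p = 0.213), Tollip (−0.10, adjusted p = 0.215), Tab2 (−0.058) and Map3k7 (−0.076) did not pass either. 2 of 9 members passed, both higher, beside 17.8% of all genes (10.5% higher), and the same 2 reached the study's threshold, beside 10.6%.

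In ZIP cells the same cytokines raised Myd88 to 14.1, 14.4, 16.3 and 16.2 CPM (log2 FC 1.28, adjusted p = 2.43e-10) and lowered Irak1 (log2 FC −0.25, adjusted p = 0.00427) to 171, 177, 152 and 184 CPM, all below the ZIP libraries. Irak4 passed by a narrow margin (log2 FC 0.73, SE 0.237, adjusted p = 0.0249). Its adjusted p was over the limit without ZIP 2 (0.0596), ZIP 3 (0.0553), ZIP 4 (0.0906), ZIP+Cy 2 (0.0615) or ZIP+Cy 4 (0.0506), and in a fit of these groups alone (0.0539). Irak2 passed too (log2 FC 0.50, SE 0.177, adjusted p = 0.0394), and lost the call without any 1 library other than ZIP+Cy 1, with adjusted p from 0.0609 (without ZIP 2) to 0.105 (without ZIP 3), and at 0.0743 without the libraries with fibroblast markers. In ZIP, 4 of 9 members passed, beside 26.4% of all genes, and by the study's threshold 2 did, beside 12.5%.

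Irak3 aside, Irak2 and Irak4 rose most with cytokines in OE cells. Irak2, at 3.78, 2.26, 2.704 and 2.72 CPM without cytokines, stood at 9.83, 14.02, 19.8 and 11.1 CPM with them, or 4.78-fold higher (log2 FC 2.26, SE 0.179, adjusted p = 2.62e-10). The 4 OE+Cy libraries were spread widely, and all of them stood above every library of the other groups. Irak4 went from 0.967, 0.653, 0.579 and 0.655 to 2.33, 2.44, 3.88 and 3.71 CPM (log2 FC 2.11, SE 0.25, adjusted p = 2.18e-07), and Myd88 from 5.79 ± 0.292 to 18.6 ± 2.02 CPM (log2 FC 1.68, adjusted p = 6.34e-13).

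Irak1 and Map3k7 fell in OE cells with cytokines. Irak1 was at 187, 193, 166 and 177 CPM, all under the untreated OE libraries (log2 FC −0.45, SE 0.0629, adjusted p = 2.87e-06). Map3k7 went from 153 ± 1.52 to 127 ± 6.34 CPM, the lowest mean of the 6 groups (log2 FC −0.27, adjusted p = 2.65e-05). Traf6 stood at 64.9, 65.8, 65.97 and 60.8 CPM and did not pass (log2 FC 0.10, adjusted p = 0.132). 6 of 9 members passed, beside 44.6% of all genes, and by the study's threshold 4 did, beside 21.0%. Irak3, on few reads, is in both counts.

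Irak3, known as IRAK-M, was near the limit of detection throughout. No Scr or ZIP library had a read. The 4 OE libraries had 0, 1, 2 and 0 reads, Scr+Cy had 0, 2, 1 and 0, ZIP+Cy 0, 0, 1 and 0, and OE+Cy 3, 6, 6 and 2. OE+Cy passed the edgeR test against OE (adjusted p = 0.0384), Scr+Cy (0.0459) and ZIP+Cy (0.0119), but not the DESeq2 test (0.211, 0.23 and 0.0774). Against untreated Scr, where no library had a read, OE+Cy passed with edgeR (adjusted p = 0.00158), with DESeq2 (0.0201) and with any 1 library left out (0.00152 to 0.00438). The limit of 3 reads in the shallowest OE+Cy library would be 0.108 CPM. The gene, at chr10:120141648-120202130 on the minus strand, overlaps the antisense gene Gm38500, and whether reads were counted by strand is not given in the sources used here. With any 1 library left out, the call against OE was lost without OE 1, OE 2, OE 4, OE+Cy 2 or OE+Cy 3 (adjusted p from 0.0662 to 0.0931), and that against Scr+Cy without Scr+Cy 1, Scr+Cy 3, Scr+Cy 4, OE+Cy 1, OE+Cy 2 or OE+Cy 3 (0.0542 to 0.11), and also without the 3 libraries with fibroblast markers (0.0866). No fold is given on so few reads.

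**Figure D3:**
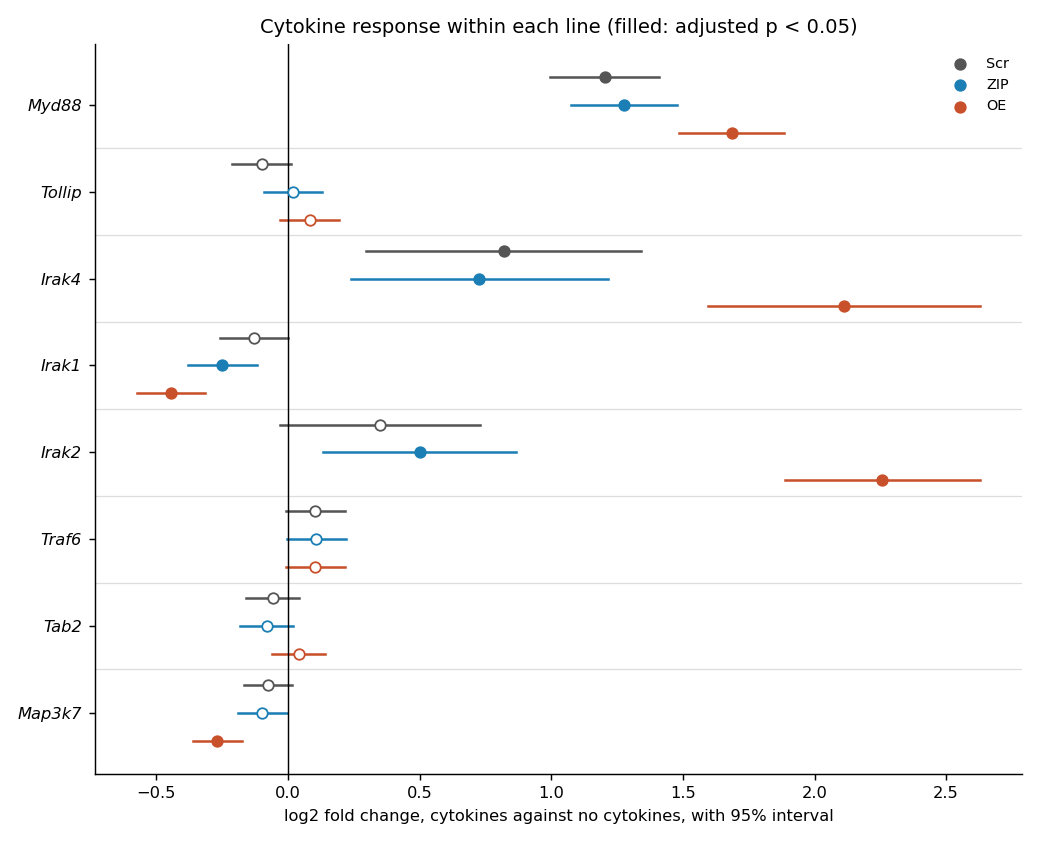
Log2 fold changes (points) with 95% intervals (lines) of cytokine-treated against untreated libraries within Scr, ZIP and OE for 8 genes. Filled points passed an adjusted p of 0.05. Irak2 and Irak4 in OE stood at 2.26 and 2.11, against 0.35 and 0.82 in Scr.

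The difference between the cytokine response of OE and that of Scr was tested as an interaction. It passed for 5 of 9 members, beside 20.0% of all genes. Irak2 differed by 1.91 on the log2 scale (standard error 0.255, adjusted p = 1.92e-05), Irak4 by 1.29 (0.354, 0.0113) and Myd88 by 0.48 (0.138, 0.0147), each a larger rise in OE. Irak1 differed by −0.31 (0.089, 0.0138), a fall in OE from its raised level. Map3k7 differed by −0.19 (adjusted p = 0.034), a call lost without those libraries with fibroblast markers (0.102), with DESeq2 size factors (0.0501) and without any 1 of 8 of the 16 libraries (Scr 1, Scr 2, all 4 of OE, Scr+Cy 3 and Scr+Cy 4, adjusted p from 0.051 to 0.0756).

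For Traf6 the interaction was −0.00027 with an interval of −0.16 to 0.16, and its log2 FC against Scr was −0.31 at both treatments. For Tollip it was 0.18 and did not pass (adjusted p = 0.0948). It passed with the replicate number as a block, which paired treated with untreated libraries in both lines (0.025), and with DESeq2 (0.0394). Between ZIP and Scr 0 of 9 members passed the edgeR test of the interaction, beside 0.0565% of all genes, and 0 members had an unadjusted edgeR p or a DESeq2 adjusted p under 0.05.

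With cytokines, the lines were then compared at the same treatment. OE+Cy against Scr+Cy gave the most calls of these comparisons, 8 of 9 members, Irak3 on few reads among them, beside 53.4% of all genes. The groups did not overlap for 7 members, beside 46.2% of all genes. Irak2 was 3.74-fold higher in OE+Cy, whose 4 libraries have been given, than in Scr+Cy, at 3.54, 3.96, 3.09 and 4.02 CPM (log2 FC 1.90, SE 0.176, adjusted p = 2.2e-09). Irak4 (log2 FC 1.07, adjusted p = 0.000488), Myd88 (log2 FC 0.84, adjusted p = 4.69e-08) and Irak1 (log2 FC 0.22, adjusted p = 0.00567) were higher too. Traf6 was lower (log2 FC −0.31, adjusted p = 3.17e-05). Tollip (log2 FC −0.26, adjusted p = 0.000241) and Map3k7 (log2 FC −0.35, adjusted p = 4.56e-07) were also lower, and Tab2 did not pass (log2 FC 0.084, adjusted p = 0.153). Over the study's fold threshold were 4 members, Irak3 again among them, beside 28.5% of all genes.

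ZIP+Cy against the same Scr+Cy libraries gave 5 of 9 members, beside 28.1% of all genes, and 2 by the study's threshold, beside 15.8%. Irak2 was at 5.31, 6.29, 6.21 and 5.997 CPM, above all Scr+Cy libraries (log2 FC 0.70, SE 0.178, adjusted p = 0.00415). Irak4 (log2 FC 0.86, adjusted p = 0.00805), Myd88 (log2 FC 0.55, adjusted p = 6.9e-05) and Tab2 (log2 FC 0.16, adjusted p = 0.014) were higher and Map3k7 (log2 FC −0.20, adjusted p = 0.0015) lower. Irak1 did not pass (log2 FC 0.14, adjusted p = 0.111), and did so with the replicate block (0.0249). Traf6 stood at 83.7, 82.6, 85.4 and 74.9 CPM, overlapping Scr+Cy (interval of the log2 fold change −0.084 to 0.14).

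Compared with each other, OE+Cy and ZIP+Cy differed for 6 of 9 members, beside 54.0% of all genes, and for 2 by the study's threshold, beside 29.0%. The 2 were Irak2 and, on few reads, Irak3. Irak2 (log2 FC 1.20, adjusted p = 1.88e-06), Myd88 (log2 FC 0.29, adjusted p = 0.0096) and Irak3 were higher in OE+Cy. Traf6 (log2 FC −0.34, adjusted p = 9.74e-06), Tollip (log2 FC −0.33, adjusted p = 1.18e-05) and Map3k7 (log2 FC −0.15, adjusted p = 0.00581) were lower, Map3k7 with an adjusted p of 0.0501 without ZIP+Cy 1. Against untreated Scr, as the study also compared them, 7 of 9 members, Irak3 among them, passed in OE+Cy, beside 59.5% of all genes, and 4 in ZIP+Cy, beside 40.8%. With Irak3 left out, the highest of these log2 fold changes in OE+Cy were those of Irak2 (2.25) and Myd88 (2.04), and in ZIP+Cy that of Myd88 (1.75). These comparisons share control libraries and are not independent.

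Because each line was grown from single clones, the genes within 5 Mb of each member were set beside it. Myd88 lies at chr9:119335934-119340018, and its 62 neighbours had a median log2 fold change of 0.79 in ZIP against Scr, with 57 higher and 52 of them above Myd88. The median was 0.79 in ZIP+Cy against Scr+Cy and 0.051 in OE against Scr. The part of the line difference at this locus in the higher Myd88 of ZIP was not tested. The 65 neighbours of Irak1 had a median of 0.23 in OE against Scr, with 54 higher, 39 past the test upward and 19 above Irak1. In OE+Cy against Scr+Cy the median was 0.14, and in ZIP against Scr 0.055. In OE+Cy against OE it was −0.16, with 43 lower and 52 above Irak1. For the OE interaction it was −0.15, with 48 lower and 50 above Irak1. The part of this locus in the Irak1 differences was not tested.

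The 30 neighbours of Traf6 had a median of −0.10 in OE against Scr, with 20 lower and 21 above Traf6, and of −0.15 with cytokines. For Tollip in OE the median of 86 neighbours was −0.091. In ZIP against Scr the neighbours of Irak4 (chr15:94543660-94568316, −0.019), Irak2 (−0.079), Tab2 (chr10:7905648-7956123, 0.027) and Map3k7 (chr4:31964107-32023466, 0.11) had medians near 0 or opposite in sign to the member, and 1 neighbour stood above Irak4. Irak2 in OE+Cy against Scr+Cy stood above all but 1 of its 65 neighbours, whose median was 0.078.

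**Figure D4:**
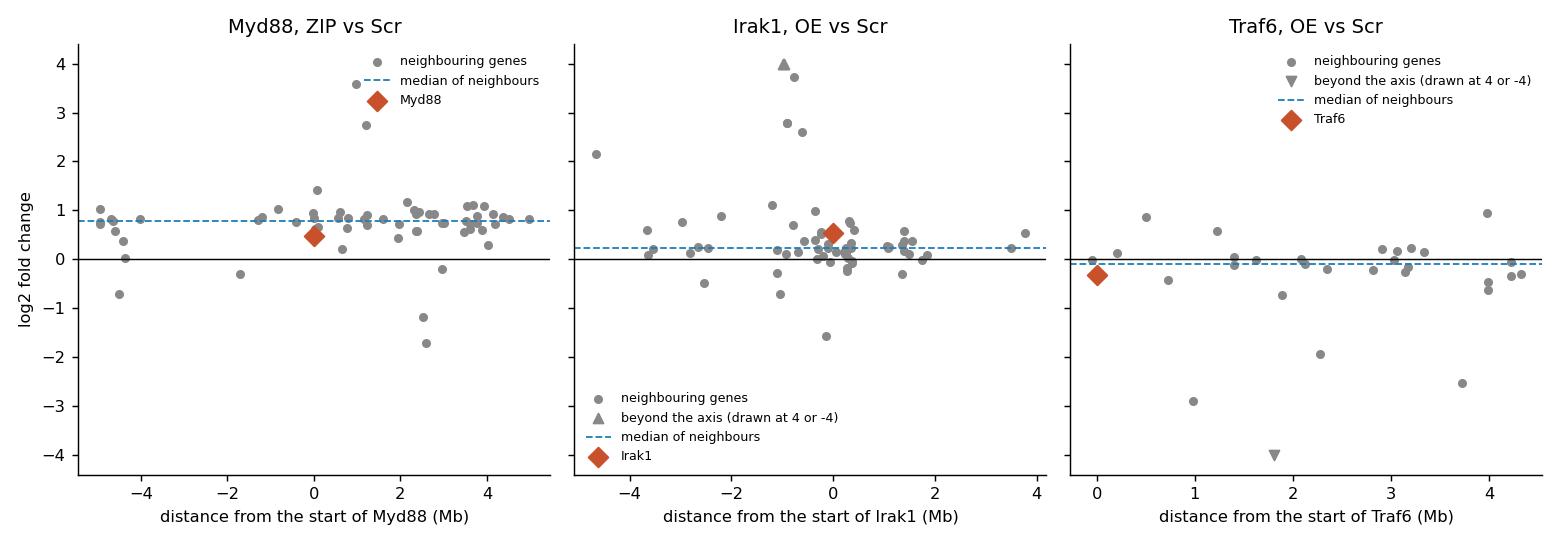
Log2 fold changes (grey points) of genes with a mean of at least 1 CPM by their distance in Mb from the start of Myd88 (ZIP against Scr), Irak1 and Traf6 (both OE against Scr). The diamond is the named gene and the dashed line the median of its neighbours, at 0.79, 0.23 and −0.10, and triangles mark values beyond the axis.

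Since Myd88 and Irak4 rose with cytokines in every line, promoter windows were searched on both strands for 3 motifs. The windows of the members ran from 250 bases before to 50 after the start (RefSeq, GRCm38.p6). The interferon-related motifs GAS (TTC, any 3 bases, GAA) and ISRE (GAAA, any 2 bases, GAAA) were found among the 9 members in Myd88 alone, and in 7.05% and 3.07% of 17365 promoters. They overlap in a stretch of Myd88 at chr9:119340042-119340071, minus strand, whose capitals mark the letters that matched, 46 to 31 bases before the start.
Myd88 promoter: gcggagcTTCTCGGAAAGCGAAAgaaggag
The κB motif (GGG, any 5 bases, CC) was found in 7 of 9 members, all but Myd88 and Tab2, and in 63.9% of all promoters. A member was counted where any of its windows matched, whereas the shares are per promoter, and Irak3 also has a window without a match. A match says only that these letters are present in the window.

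The other genes of the pathway were followed as lists, whose counts stand beside the shares of all genes. Without the 3 libraries with fibroblast markers, 16 of 226 calls on 67 list genes in 7 comparisons were lost and 4 gained. IL-1 family receptors were higher in OE than in Scr for 5 of 8, with 1 lower, where 24.5% of all genes were higher and 25.6% lower. Among them was Il1r1, the signalling receptor of IL-1β, at 660.2 ± 47.5 CPM in Scr and 1048 ± 58.1 CPM in OE (log2 FC 0.67, adjusted p = 1.93e-07). Sigirr, an inhibitory receptor, (log2 FC 3.47, adjusted p = 5.38e-08) and Il18rap, the accessory chain of the IL-18 receptor, (log2 FC 1.85, adjusted p = 1.82e-06) rose on lower levels. In ZIP against Scr 0 rose and 3 fell, beside 13.5% and 14.8% of all genes. Cytokines raised 3 of 8 in Scr (10.5% of all genes), and raised 5 and lowered 1 in OE (23.0% and 21.5% of all genes). Il1r1 stood at 872 ± 54.6 CPM in Scr+Cy and 830 ± 50.4 CPM in OE+Cy, and these groups overlapped. Il18r1, a chain of the IL-18 receptor, was at 17.7 ± 7.11 CPM in OE+Cy and 0.0163 ± 0.0188 CPM in Scr+Cy (adjusted p = 1.3e-12).

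Of 9 Toll-like receptors 7 were listed. In OE against Scr 2 rose and 1 fell, or 3 of 7 beside 50.1% of all genes, and Tlr4, the receptor of lipopolysaccharide, was at 13.2 ± 0.544 CPM in OE and 0.0146 ± 0.0169 CPM in Scr (adjusted p = 3.25e-12). In ZIP against Scr 1 rose (13.5% of all genes), Tlr5 (log2 FC 0.99, adjusted p = 6.81e-05), the receptor of flagellin. Cytokines raised Tlr2 (log2 FC 6.95, adjusted p = 1.73e-10) and Tlr3 (log2 FC 4.31, adjusted p = 1.15e-13) in Scr and lowered Tlr5 (log2 FC −0.74, adjusted p = 0.00397), where 10.5% of all genes rose and 7.33% fell. Of the 4 other TIR adaptors, 2 rose and 2 fell in OE, with Ticam2, the bridging adaptor of TLR4, lowest (log2 FC −3.21, adjusted p = 1.06e-06). Of the 4 listed IL-1 family ligands, 2 rose and 1 fell in OE, the last being Il1b (log2 FC −2.12, adjusted p = 9.08e-09).

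Inhibitors of the pathway rose together with cytokines. 9 of 10 rose in Scr (median log2 fold change 1.86, over all genes 0.0023), beside 10.5% of all genes. In ZIP 10 of 10 rose, beside 13.6%, and in OE 9 of 10, beside 23.0%, with Usp4 as the exception in Scr and OE. Zc3h12a, which encodes the ribonuclease regnase-1, was higher in ZIP+Cy than in Scr+Cy (log2 FC 1.12, adjusted p = 4.14e-05). Without cytokines 4 of 10 passed in OE, 2 higher and 2 lower, beside 50.1% of all genes. In ZIP 1 rose and 1 fell, beside 28.3%, the former being the deubiquitinase gene Usp4 (log2 FC 0.84, adjusted p = 2.99e-12).

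Partners that act beside TRAF6 and TAK1 did not share a direction between lines. Of 12 listed ubiquitin and TRAF partners, 5 rose and 3 fell in OE (50.1% of all genes passed), 1 rose and 2 fell in ZIP (28.3%), and 5 rose with cytokines in Scr (10.5% of all genes rose). Tifa, which brings TRAF6 into oligomers, was at 17.5 ± 7.65 CPM in OE+Cy and 0.375 ± 0.121 CPM in Scr+Cy (log2 FC 5.52, adjusted p = 2.69e-11), and Traf5 fell in ZIP (log2 FC −0.84, adjusted p = 9.35e-06). Of 13 TAK1 partners and kinases downstream, 1 rose and 3 fell in OE, 2 rose and 1 fell in ZIP, and 3 rose with cytokines in Scr, beside the same shares. Without the 3 libraries with fibroblast markers, 3 rose and 2 fell in OE.

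Other reported targets of miR-146a did not share a direction in OE. Of 9, 3 rose and 2 fell, beside 24.5% and 25.6% of all genes. Numb, whose 3′ UTR holds an 8mer, rose (log2 FC 0.41, adjusted p = 1.96e-06), and Card10, which holds one as well, fell (log2 FC −0.50, adjusted p = 0.0103). Cxcr4, with no match, fell in OE (log2 FC −0.999, adjusted p = 0.00718) and in ZIP (log2 FC −0.86, adjusted p = 0.0333), the latter call lost without the 3 libraries with fibroblast markers (adjusted p = 0.132). Relb, an NF-κB subunit gene with a match of 6 bases, rose in OE (log2 FC 1.06, adjusted p = 0.000155) and in ZIP (log2 FC 1.06, adjusted p = 0.000417). Card10 was also lower in ZIP, at 0.531 ± 0.14 CPM against 6.05 ± 0.402 CPM in Scr (log2 FC −3.50, adjusted p = 1.56e-12).

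Among the lists in cytokine-treated cells, OE+Cy against Scr+Cy gave 4 of 8 IL-1 family receptors higher and 0 lower, 4 of 7 Toll-like receptors higher and 0 lower, and 6 of 10 inhibitors higher and 3 lower, where 26.0% of all genes were higher and 27.4% lower. Tlr4 stood at 25.9 ± 5.12 CPM in OE+Cy and 0.0999 ± 0.18 CPM in Scr+Cy (adjusted p = 8.15e-13). Ticam2 (log2 FC −2.97, adjusted p = 2.52e-06), Card10 (log2 FC −1.34, adjusted p = 1.98e-07) and Il1b (log2 FC −0.64, adjusted p = 0.00595) were lower in OE+Cy, as they were in OE against Scr. Of the ubiquitin and TRAF partners 6 were higher and 3 lower, of the TAK1 partners and kinases 6 and 4, and of the other reported targets 4 and 3.

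ZIP+Cy against Scr+Cy gave fewer calls among all genes, 12.9% higher and 15.1% lower. Tlr5 (log2 FC 1.24, adjusted p = 7.03e-06) and the decoy receptor gene Il1r2 (log2 FC 1.02, adjusted p = 0.000202) were higher. Card10 (log2 FC −4.13, adjusted p = 2e-13), Il18rap (log2 FC −0.93, adjusted p = 0.00332) and Ube2v2, a partner of the ubiquitin-conjugating enzyme UBE2N (log2 FC −0.81, adjusted p = 8.1e-07), were lower. Of 10 inhibitors 5 were higher and 1 lower, and of the 9 other reported targets 0 were higher and 2 lower, or 1 lower without the 3 libraries with fibroblast markers. The lists' shares were not tested against those of all genes.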

How the data were processed

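mRNA of 24 MIN6 samples was purified from total RNA and sequenced, 1 library each. The authors aligned reads to mm10 with STAR (2.7.8a in the submitters' processing notes) and assigned them to RefSeq genes in Partek Flow (11.0.24.0204 in the notes), and deposited estimated counts per gene, 30.3% of which had a decimal part. They also deposited a normalized signal, those counts divided by 1 factor per library. Genes in the table had at least 10 reads in all. How reads were counted by strand is not given in the sources used here. The files held no values of the authors' own comparisons.

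Estimated counts were rounded and fitted over all 17696 genes with edgeR 4.0.16 in R 4.3.3 (TMM, quasi-likelihood test, 6 group means, all 24 libraries). P-values were two-sided and Benjamini-Hochberg adjusted over all genes, "rose" and "fell" mean an adjusted p under 0.05, and the standard error is the size of the log2 fold change divided by the square root of F. Depth was 26657792 to 37168232 reads, and detection limits of 3 reads cover counting error only. The steps were tested on simulated data.

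Alternatives were DESeq2 1.42.0, DESeq2 size factors, filterByExpr, a block for the replicate number, a fit of the compared groups alone, limma 3.58.1 on log2(deposited normalized signal + 1), and leaving out each library. Leaving out the 3 libraries with summed fibroblast markers of at least 10 CPM, for members and lists, was chosen after seeing the data. Same-numbered libraries deviated together (every correlation over 0.1, across 12670 genes over 1 CPM) in OE against ZIP (0.200 to 0.413), ZIP against Scr (0.141 to 0.634), ZIP+Cy against Scr+Cy (0.191 to 0.370), and with against without cytokines in Scr (0.413 to 0.626), ZIP (0.261 to 0.397) and OE (0.162 to 0.455), so the numbers, which the labels give, paired these groups.

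The 9 members and the lists were chosen with earlier results of these data known. Named in the text were the 9 members, and of the pathway lists the 3 highest and the 3 lowest fold changes among genes that passed the test and averaged 1 CPM or more in a group compared, in 5 comparisons. Il1r1, Numb, the further comparisons of Relb and Card10, and list members named to complete a count were chosen after their values were seen, and some genes that these rules pick are not reported here. Of the lists, Il18, Il36a, Il36b, Il36g, Tlr1, Tlr8 and Traf1 were not in the table. Neighbours, seed matches and motifs are descriptions with no test. Lengths, 3′ UTRs and the positions of seed matches came from GENCODE M21. Positions of members and neighbouring genes were those deposited with the counts, and those of promoters and miRNAs came from RefSeq.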

Additional observations from a re-analysis of the deposited data

Results flagged for a closer look

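Of 49 sets of 4 libraries examined, 2 held a library far from the other 3, and chance flags about 1 in 20 groups. Myd88 in OE 2 was at 6.23 CPM, with the other OE libraries at 5.62 to 5.70 CPM. Tab2 in Scr+Cy 4 was at 187 CPM, with the others at 174 to 175 CPM.

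The cytokine response differed between OE and Scr, by the interaction test, for 5 members, beside 20.0% of all genes. On the log2 scale the response in OE minus that in Scr was 1.91 for Irak2, 1.29 for Irak4, 0.48 for Myd88, −0.31 for Irak1 and −0.19 for Map3k7. Within OE, cytokines raised Irak2, Irak4 and Myd88 and lowered Irak1 and Map3k7, where 44.6% of all genes passed. The Map3k7 interaction was lost without any 1 of 8 of the 16 libraries.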

How the results depend on the processing

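Of the counts of members, 165 of 168 values under other settings, and 193 of 208 with 1 library left out, stayed within 1.5 times the value reported. Exceptions were 1 member past the study's threshold in OE+Cy against ZIP+Cy with filterByExpr (2 as reported), and, without the 3 libraries with fibroblast markers, 0 past that threshold in ZIP against Scr (1 as reported) and 1 past the adjusted p in Scr+Cy against Scr (2 as reported). With 1 library left out, counts past the adjusted p ran from 1 to 2 in Scr+Cy against Scr and 2 to 4 in ZIP+Cy against ZIP, and past the study's threshold from 0 to 1 in OE against Scr, 1 to 2 in OE against ZIP, 1 to 2 in ZIP against Scr and 1 to 2 in ZIP+Cy against ZIP.

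For single members, 720 of 752 values under other settings kept their direction and side of the threshold. The reversals all concern values that were not called. They lay near 0 except for the ZIP interaction of Irak4, at −0.092 in the main fit with a standard error of 0.341. Irak2 in OE against Scr was 0.0080 with DESeq2, 0.0075 with its size factors, 0.0010 with filterByExpr and 0.035 without the 3 libraries. The OE interaction of Traf6 was 0.013, 0.014, 0.0040 and 0.020 under the same settings and 0.014 with limma. The ZIP interaction was −3.75e-05 for Traf6 with filterByExpr and 0.23 for Irak4 without the 3 libraries. With 1 library left out, log2 fold changes that crossed 0 ran from −0.17 to 0.10 for Irak2 and −0.029 to 0.024 for Tab2 in OE against Scr, −0.022 to 0.063 for Traf6 in ZIP against Scr, −0.022 to 0.068 for Tab2 in OE+Cy against OE and −0.0083 to 0.067 against Scr, −0.0047 to 0.053 for Tollip in ZIP+Cy against ZIP and −0.045 to 0.0049 against Scr, and −0.029 to 0.059 for Irak1 in ZIP+Cy against Scr. Interactions that did so ran from −0.031 to 0.024 for Traf6 in OE, and in ZIP from −0.29 to 0.19 for Irak4, −0.051 to 0.015 for Map3k7, −0.046 to 0.0099 for Tab2 and −0.035 to 0.065 for Traf6.

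Calls gained were Tab2 in OE+Cy against Scr+Cy (adjusted p = 0.0358) and in ZIP+Cy against Scr (0.0468) with DESeq2, Traf6 in ZIP+Cy against Scr with DESeq2 (0.0396), filterByExpr (0.0397) and the replicate block (0.0384), and the OE interaction of Tollip with DESeq2 (0.0394) and the block (0.025). Irak3 in OE+Cy against Scr+Cy was lost with only the groups compared (0.0512). Leaving out 1 library gained Traf6 in ZIP+Cy against Scr (0.0448 without Scr 3, 0.0428 without Scr 4, 0.0162 without ZIP+Cy 4) and against ZIP (0.0456 without ZIP 3), the OE interaction of Tollip (0.0321 without OE 2), Irak1 in ZIP+Cy against Scr+Cy (0.0284 without ZIP+Cy 3) and Tab2 in OE+Cy against ZIP+Cy (0.022 without OE+Cy 3). Where the numbers paired the samples, the block changed no call on the members other than those of Irak1 in Scr+Cy against Scr and in ZIP+Cy against Scr+Cy and of the OE interaction of Tollip. Not every correlation was over 0.1 in OE against Scr (−0.129 to 0.295), where replicate 2 alone was under it. The same held between OE+Cy and Scr (0.0242 to 0.182), Scr+Cy (0.000631 to 0.165) or ZIP+Cy (0.0872 to 0.446), and between ZIP+Cy and Scr (0.0692 to 0.281). These groups were not counted as paired, which does not show that their libraries were unpaired. Depth limits Irak4 and Irak3 most, at 20 to 35 reads for Irak4 in Scr and OE and at most 6 for Irak3 in any library. The cause of each change was not tested.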

Other observations

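The genes whose pattern over the 24 libraries was most like that of each member were named by the Pearson correlation of log2 CPM, as a description with no test, since the libraries fall into 6 groups that both genes share. For Myd88 they were Inpp1 (r = 0.981), Ccrl2 (0.981) and Rfx5 (0.979). Traf6 was most like Manea (0.955), Prkce (0.936) and Snrnp200 (0.934), and Tollip most like Soga1 (0.955), Trim44 and Snx30 (both 0.953). For Irak1 they were Atcay (0.955), Cthrc1 (0.95) and Gnas (0.946), for Irak2 Slc31a2 (0.948), Dlgap4 (0.943) and Adam8 (0.937), and for Irak4 they included Col22a1 (0.914) and Cd44 (0.903). Tab2 was most like Smim10l1 (0.873), Atp2c1 (0.837) and Rrm2b (0.836), and Map3k7 most like Arhgap19 (0.952), Eri2 (0.938) and Tm9sf3 (0.935). Among the members, Tollip and Traf6 had an r of 0.883, Myd88 and Irak4 of 0.860, and Irak2 and Map3k7 of −0.853.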
